A study of Homo sapiens with 6 samples.

Results

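Collagens, laminins and their partners build the extracellular matrix, the protein mesh outside cells. The genes described here are the 44 collagen chain genes, the 12 laminin chain genes and 20 further matrix genes: FN1, SPARC, FBLN1, FBN1, FBN2, HSPG2, AGRN, NID1, NID2, MMP2, MMP14, MMP15, TIMP1 to TIMP3, LOX and LOXL1 to LOXL4. Collagens and laminins were chosen by symbol among protein-coding genes, and the others by name. They make 76 of the 57500 gene identifiers in the table, and 47 of them reached 1 TPM in at least 3 of the 6 libraries and were tested. TPM is a transcript level corrected for length and scaled to the same total in each library. The remaining 29 stayed under that limit, so statements on tested genes do not cover the whole group.

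RNA was sequenced from HEK293T, a human embryonic kidney line labelled here as epithelial. All libraries come from this line, grown in DMEM with 10% FBS. The 3 control libraries carry the genotype WT and a vector control treatment, and their titles call them mock. The 3 PRMT1 libraries carry the genotype PRMT1 OV, from cells that received PRMT1 in a pcDNA3 plasmid by PolyJet transfection. PRMT1 is an arginine methyltransferase. The labels give no time after transfection, do not say whether control cells received an empty plasmid, and do not say whether replicates came from separate cultures, so p-values reflect no more than the scatter among the libraries at hand, and that scatter may be technical. PRMT1 itself was at 378, 397 and 368 TPM in control libraries 1 to 3 and at 71656, 62895 and 84923 TPM in PRMT1 libraries 1 to 3. The gene named in the labels was thus far higher in all PRMT1 libraries. It took 6.29 to 8.49% of all TPM in the PRMT1 libraries. The depth recovered from the values was 18196160 to 23163549 reads, at which 3 reads on a 1 kb transcript equal 0.459 to 0.526 TPM.

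As background, collagens form triple helices of 3 chains. Fibrillar collagens give tensile strength, collagen IV forms the sheet of basement membranes, and collagen VI forms beaded filaments at the cell surface. Laminins join an alpha, a beta and a gamma chain, and nidogens and perlecan (HSPG2) tie them to collagen IV. Lysyl oxidases cross-link collagen and elastin. Matrix metalloproteinases cut these proteins, and TIMPs inhibit the proteinases. In kidney, basement membranes of this kind carry the tubules and the glomerular filter.

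Sequence upstream of the start is shown for genes on which the results turn. These are a pair of collagen IV genes that lie head to head, and COL6A2 with the smallest p-value of the group. A laminin chain gene for each direction of change is also shown. The sequences come from RefSeq promoters of GRCh38.p14, in which 57 of the 76 genes matched by symbol. Apart from the stretch between COL4A1 and COL4A2, they were trimmed to bases outside GENCODE 29 exons. Counted back from the start, the trimmed sequences run from 250 to 16 bases (COL6A2), 250 to 69 (LAMB2) and 250 to 1 (LAMA5). Each is printed 5′ to 3′ on the strand of the gene, with capitals for matches on either strand to the GC box GGGCGG, the CCAAT box CCAAT and the TATA box TATAAA.
COL4A1 to COL4A2, chr13:110307167-110307196, plus strand: gggccgagctccCCAATttgttggcgctgc
COL6A2, chr21:46097862-46098096, plus strand: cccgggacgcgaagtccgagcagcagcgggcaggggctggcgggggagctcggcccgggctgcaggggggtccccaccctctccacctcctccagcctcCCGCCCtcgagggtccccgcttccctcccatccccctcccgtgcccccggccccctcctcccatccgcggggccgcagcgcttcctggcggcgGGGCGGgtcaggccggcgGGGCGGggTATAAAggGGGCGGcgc
LAMB2, chr3:49133119-49133300, minus strand: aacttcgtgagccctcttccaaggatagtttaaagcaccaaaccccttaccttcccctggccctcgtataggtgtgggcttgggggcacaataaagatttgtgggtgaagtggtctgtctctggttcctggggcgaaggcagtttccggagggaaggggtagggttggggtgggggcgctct
LAMA5, chr20:62367313-62367562, minus strand: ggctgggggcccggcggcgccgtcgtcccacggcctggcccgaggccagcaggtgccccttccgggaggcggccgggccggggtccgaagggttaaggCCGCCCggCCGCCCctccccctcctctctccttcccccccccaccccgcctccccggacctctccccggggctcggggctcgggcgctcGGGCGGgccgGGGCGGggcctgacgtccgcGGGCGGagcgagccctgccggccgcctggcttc
COL4A1 and COL4A2 lie head to head with RefSeq starts 126 bases apart. The 30 bases printed lie between them, 117 to 88 bases before the COL4A2 start. In GENCODE 29 the spans of both genes cover these bases, which were not checked against exons. This window was placed around a CCAAT match, so the match is a description only. The 235 bases of COL6A2 held 4 GC box matches and 1 TATA match, where 40.3% and 10.9% of 27305 promoters have any such match in the same window. The 182 bases of LAMB2 held none of the 3 motifs, and a GC box occurs in 31.3% of promoters over that window. Bases of LAMB2 closer to the start than 69 were left out by the trimming and not searched. The 250 bases of LAMA5 held 5 GC box matches, against 42.3% of promoters with at least 1. These matches describe letters only.

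Matrix genes were more often lower than higher in the PRMT1 libraries. Of the 47 tested, 20 fell, 2 rose (LAMA5 and LAMB3) and 25 did not pass the test. Over all 15341 tested genes the balance was the opposite, with 40.3% higher and 8.64% lower, against 4.26% and 42.6% of the matrix genes. Of all tested genes 49% passed in either direction. The test was limma on log2(TPM + 1), adjusted by the Benjamini-Hochberg method over all tested genes at a threshold of 0.05. The median log2 difference, PRMT1 minus control, was -0.29 for the matrix genes and 0.30 for all tested genes. Values of the 2 groups did not overlap for 23 matrix genes that were lower and 7 that were higher, against 11.6% and 49.8% of all tested genes. None of the changes reached 2-fold with an adjusted p under the threshold on this scale, where 9.96% of all genes did so upward and 0.854% downward. In bulk RNA, fewer cells of a type and less RNA per cell cannot be told apart.

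Because each library adds up to the same total, the counts depend on the scaling. With median-of-ratios scaling, under which the median of all genes lies at 0.01, 32 matrix genes were lower and 1 higher (24.1% and 23.5% of all genes), and with quantile normalization 30 were lower and 0 higher (19.1% and 20.8%). After removal of PRMT1 and rescaling of the remaining genes, 16 were lower and 4 higher (5.74% and 49.2%). None of the 22 called genes changed direction under any alternative run. Leaving aside the 2-fold limit, which none of them met, 14 passed under all of theirs. Control library 3 held the lowest control value for 38 of the 47 genes, with a median deviation of -0.17 (log2) from the control mean, against -0.07 over all genes. Without it 26 were lower and 2 higher. Without control library 1, 15 were lower and 0 higher. Leaving out any other library gave 15 to 19 lower and 1 to 3 higher.

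**Figure D1:**
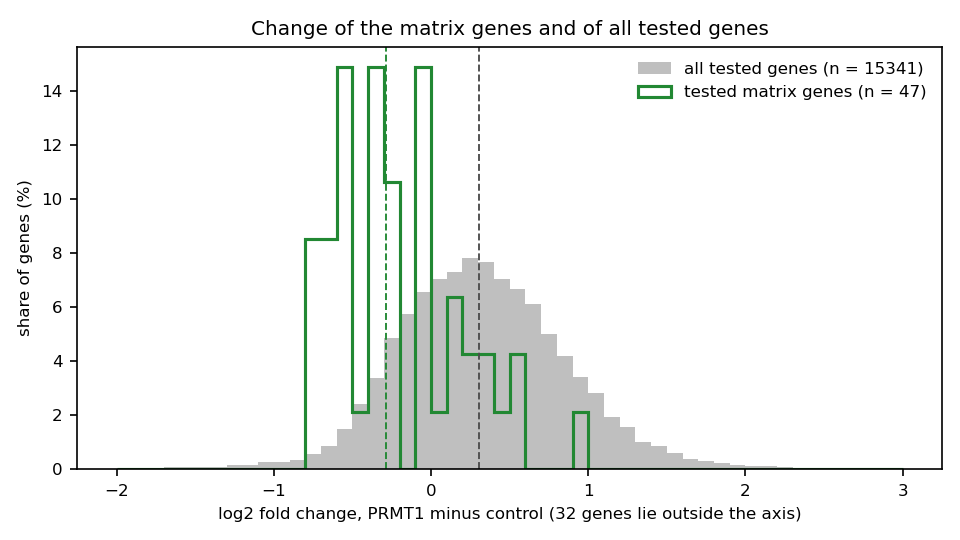
Distribution of log2 differences (PRMT1 minus control, log2(TPM + 1)) for all 15341 tested genes and the 47 tested matrix genes, as the share of genes in each bin, with dashed lines at the medians. The matrix genes are shifted to lower values, with a median of -0.29 against 0.30.

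**Figure D2:**
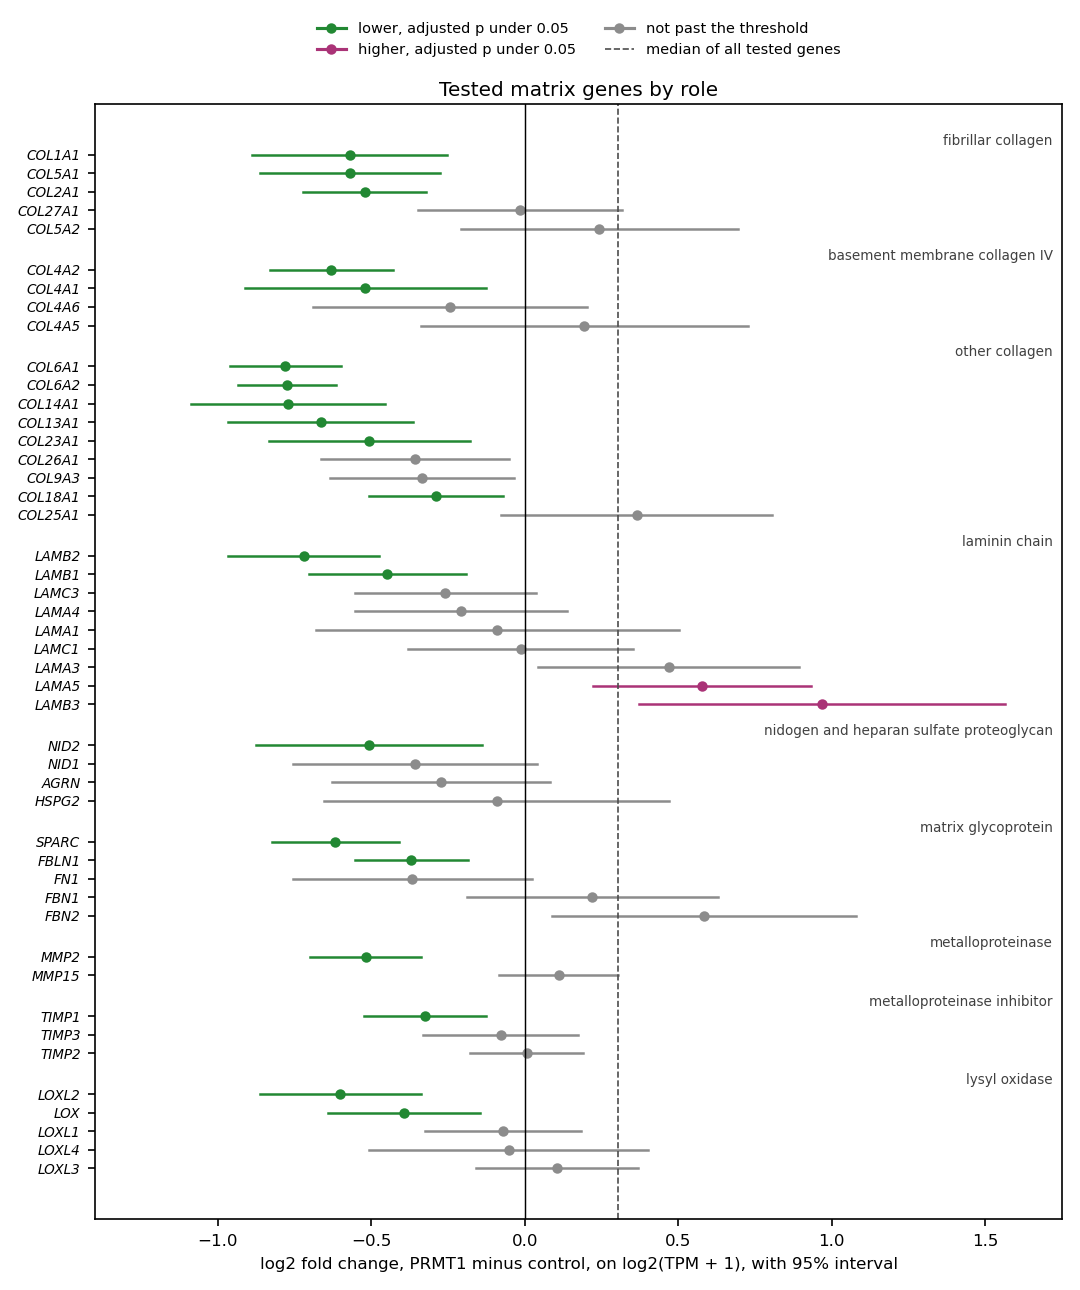
Log2 difference, PRMT1 minus control on log2(TPM + 1), of the tested matrix genes named in the text, ordered by role, with 95% confidence intervals from limma and a dashed line at the median of all tested genes. Of 18 tested collagens 11 fell (61.1%) and 0 rose. Of 10 tested laminin chains 2 fell and 2 rose (20% each), against 8.64% and 40.3% of all tested genes.

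Among fibrillar collagens, 3 of 5 tested genes fell (60%) and 0 rose, against 8.64% and 40.3% of all tested genes. COL2A1 (chr12:47972965-48004554), the main collagen of cartilage, was at 31.1, 30.2 and 27.2 TPM in control libraries 1 to 3 and at 19.9, 20.2 and 20.7 TPM in PRMT1 libraries 1 to 3. Every PRMT1 library lay below every control library, a log2 difference of -0.52 (SE 0.09, adjusted p = 0.00228). COL1A1 (chr17:50183289-50201632), a chain of the collagen of bone and skin, had 16.7, 16.7 and 12.2 TPM in the controls, against 10.4, 9.27 and 9.85 TPM with PRMT1. Control 3 was the low control, yet still above the PRMT1 libraries, and the log2 difference was -0.57 (SE 0.14, adjusted p = 0.0109). COL5A1 (chr9:134641774-134844843), a chain of the collagen that limits fibril width, had 5.80, 5.80 and 4.68 TPM in the controls, against 3.31, 3.27 and 3.35 TPM with PRMT1. The PRMT1 values were nearly the same and all lower, with a log2 difference of -0.57 (SE 0.13, adjusted p = 0.00769). COL5A2, which pairs with COL5A1, differed by 0.24 (adjusted p = 0.327) and COL27A1 by -0.02 (adjusted p = 0.934), both with overlapping groups.

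The partner chain of COL1A1 was nearly missing from these cells, since COL1A2 reached at most 0.0451 TPM. The other fibrillar genes outside the test had highest values of 0.0185 TPM (COL11A1), 0.0946 TPM (COL5A3), 0.529 TPM (COL11A2), 0.584 TPM (COL24A1) and 0.903 TPM (COL3A1). Summed TPM of the 11 fibrillar genes was 54.8 ± 5.99 in the controls and 38.7 ± 0.371 with PRMT1 (SD, n = 3 each), with no overlap between the groups.

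The head-to-head collagen IV genes COL4A1 and COL4A2, with a stretch between their RefSeq starts printed above, both fell. COL4A2 (chr13:110305812-110513209) had 58.9, 60.2 and 51.6 TPM in the controls, against 35.2, 37.8 and 35.98 TPM with PRMT1. The groups lay well apart, with a log2 difference of -0.63 (SE 0.09, adjusted p = 0.00107). COL4A1 (chr13:110148963-110307233) had 22.0, 23.6 and 14.9 TPM in the controls, against 12.4, 14.6 and 13.7 TPM with PRMT1, a log2 difference of -0.52 (SE 0.17, adjusted p = 0.0356). Control 3 lay only just above the highest PRMT1 library. The COL4A1 call is the less firm: its adjusted p was 0.109 without control 1, 0.106 without control 2, 0.105 without PRMT1 library 1, 0.0594 without PRMT1 library 2 and 0.0745 without PRMT1 library 3. The ratio of COL4A2 to COL4A1 was 2.89 ± 0.49 in the controls and 2.69 ± 0.13 with PRMT1 (SD, n = 3 each), and the groups overlapped.

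The X-linked pair COL4A5 and COL4A6, chains of kidney basement membranes, did not pass. COL4A5 differed by 0.19 (adjusted p = 0.511) and COL4A6 by -0.24 (adjusted p = 0.322). For COL4A6 the adjusted p was 0.0251 without control 3. COL4A3 and COL4A4, the other chains of the glomerular network, stayed at or under 0.102 and 0.815 TPM.

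Collagen VI held the largest fall by level. COL6A1 (chr21:45981737-46005050), the most abundant collagen transcript here, had 217, 218 and 188 TPM in the controls, against 120, 122 and 118 TPM with PRMT1. The controls were 1.73-fold above the PRMT1 libraries, with a log2 difference of -0.78 (SE 0.08, adjusted p = 0.000302). COL6A2 (chr21:46098097-46132849), on the same chromosome arm, had 73.2, 71.5 and 69.2 TPM in the controls, against 40.7, 42.0 and 41.0 TPM with PRMT1. Its fold was also 1.73, with a log2 difference of -0.78 (SE 0.07, adjusted p = 0.000207). The ratio of COL6A1 to COL6A2 was 2.91 ± 0.18 in the controls and 2.91 ± 0.03 with PRMT1 (SD, n = 3 each). The usual partner chain, COL6A3, reached at most 0.213 TPM, and its relatives COL6A5 and COL6A6 0.128 and 0.0863 TPM.

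**Figure D3:**
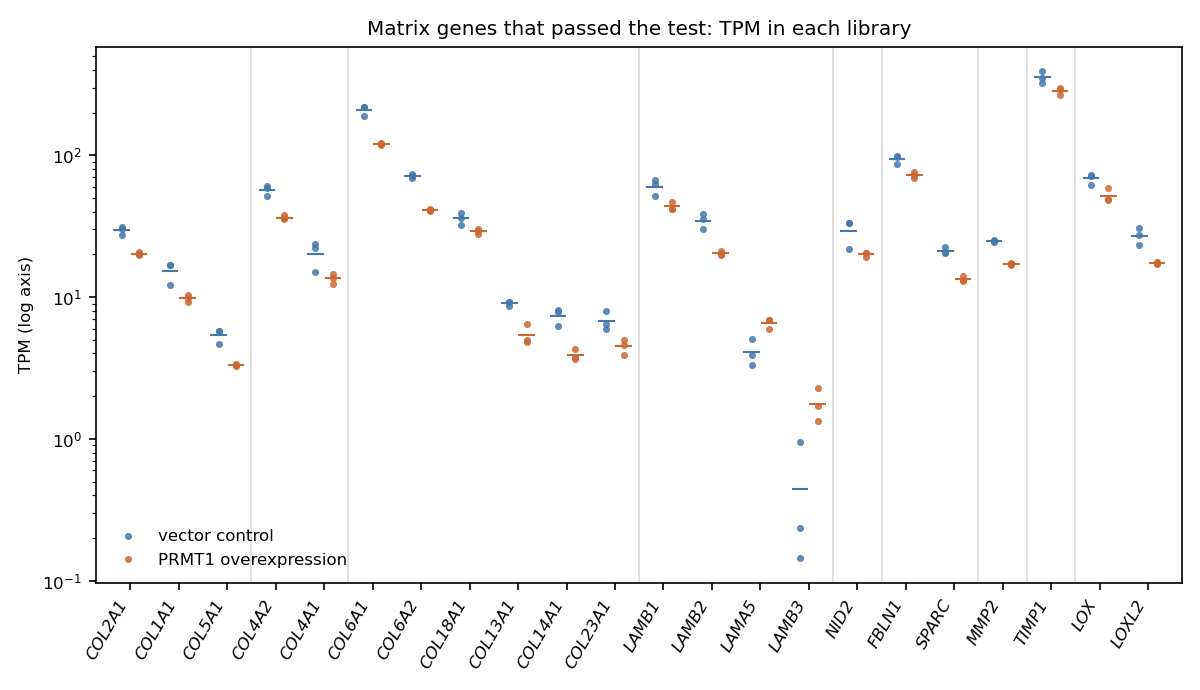
TPM in each of the 6 libraries (log axis) for the 22 matrix genes that passed the test, with a point for each library and a short line for the mean of each group. PRMT1 points lie below control points for the 20 genes that fell and above them for LAMA5 and LAMB3.

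Outside collagen VI, COL14A1 and COL13A1 had the largest falls among the collagens on the log2 scale. COL14A1 (chr8:120059780-120372036), which coats collagen fibrils, had 8.09, 7.88 and 6.22 TPM in the controls, against 3.64, 4.31 and 3.75 TPM with PRMT1. Every PRMT1 value was lower, by a mean fold of 1.90 (log2 difference -0.77, SE 0.14, adjusted p = 0.00294). COL13A1 (chr10:69801867-69964275), a transmembrane collagen, had 8.68, 9.29 and 9.30 TPM in the controls, against 4.94, 6.46 and 4.81 TPM with PRMT1. PRMT1 library 2 was the highest of its group but still below the controls, and the log2 difference was -0.66 (SE 0.13, adjusted p = 0.00458).

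COL23A1, also a transmembrane collagen, fell by 0.51 (log2, adjusted p = 0.0197). Without control 1, PRMT1 library 1 or PRMT1 library 3 its adjusted p was 0.0748, 0.0524 and 0.0652. With a correction for GC content its log2 difference was -0.25 (adjusted p = 0.228). COL18A1, a basement membrane collagen whose end fragment is endostatin, fell by 0.29 (adjusted p = 0.0359). Its call was lost with the GC correction (log2 difference -0.02, adjusted p = 0.922) and without control 1, control 2, PRMT1 library 1 or PRMT1 library 3 (adjusted p = 0.101, 0.12, 0.0951 and 0.104). In GENCODE 29, 16.4% of its exonic bases overlap SLC19A1 on the other strand, so its reads cannot be fully told apart. COL26A1 (-0.36, adjusted p = 0.0547), COL9A3 (-0.34, adjusted p = 0.0628) and COL25A1 (0.36, adjusted p = 0.149) did not pass, although their groups did not overlap. Without control 3 COL26A1 had an adjusted p of 0.0165, and without PRMT1 library 2 COL9A3 had 0.0419. With the GC correction they stood at -0.13 (adjusted p = 0.501) and -0.06 (adjusted p = 0.769), and with median-of-ratios scaling at -0.68 (adjusted p = 0.00136) and -0.64 (adjusted p = 0.0033).

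Of the 27 collagens outside the fibrillar and collagen IV classes, 18 were not tested. COL21A1 and COL22A1 were listed at 0 in all libraries. COL8A1, COL8A2, COL9A1, COL10A1, COL12A1, COL15A1, COL16A1, COL17A1, COL19A1, COL20A1 and COL28A1 had highest values from 0.016 to 0.693 TPM. COL7A1, the anchoring fibril collagen, and COL9A2 reached 0.947 and 1.31 TPM. In a fit without the filter, which adds genes with few reads, COL7A1 rose by 0.66 (log2, adjusted p = 0.0112, 24 reads over the controls and 159 over the PRMT1 libraries) and COL9A2 by 0.62 (adjusted p = 0.0407, 27 and 84 reads). They were the only collagen chains called higher in that fit.

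Laminin chains did not move together: of 10 tested, 2 fell and 2 rose (20% each), against 8.64% and 40.3% of all tested genes. LAMB2 (chr3:49121114-49133118), the beta chain of mature glomerular and muscle basement membranes, had 35.2, 38.2 and 29.95 TPM in the controls, against 20.2, 19.8 and 21.3 TPM with PRMT1. Groups lay well apart, with a log2 difference of -0.72 (SE 0.11, adjusted p = 0.00139). LAMB1 (chr7:107923799-108003255), the beta chain of early basement membranes, had 62.6, 66.5 and 51.4 TPM in the controls, against 42.1, 47.0 and 41.9 TPM with PRMT1. Its log2 difference was -0.45 (SE 0.11, adjusted p = 0.0121). LAMC1 (chr1:183023460-183145592), the gamma chain that joins either of them and the most abundant laminin chain, had 94.9, 100.9 and 65.7 TPM in the controls, against 78.8, 91.7 and 84.5 TPM with PRMT1. These overlapped, with a log2 difference of -0.01 (95% confidence interval -0.38 to 0.35, adjusted p = 0.949), but with median-of-ratios scaling it was -0.37 (adjusted p = 0.0347). The ratio of LAMC1 to LAMB1 was 1.44 ± 0.14 in the controls and 1.95 ± 0.07 with PRMT1 (SD, n = 3 each), without overlap.

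The 2 genes that rose are both laminin chains. LAMA5 (chr20:62307955-62367312), the alpha chain of many adult epithelia, had 3.89, 5.09 and 3.34 TPM in the controls, against 6.84, 5.97 and 6.85 TPM with PRMT1. All PRMT1 values were higher, with a log2 difference of 0.58 (SE 0.15, adjusted p = 0.0162). Of the LAMA5 exonic bases, 244 (1.71%) overlap ADRM1 on the other strand. ADRM1 had a mean of 182 TPM in the controls, against 205 TPM with PRMT1. The strand setting is not given, so LAMA5 and ADRM1 reads cannot be fully told apart over these bases. What ADRM1 adds to the LAMA5 values was not tested. LAMB3 (chr1:209614870-209652466), a beta chain of the epidermal laminin, had 0.235, 0.954 and 0.144 TPM in the controls, against 1.71, 2.29 and 1.33 TPM with PRMT1. The log2 difference was 0.97 (SE 0.26, adjusted p = 0.0162), resting on 38 reads over the controls and 157 over the PRMT1 libraries. Control 2 was the high control, and LAMB3 passed the filter on low values only through the PRMT1 group.

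Both calls depended on the settings. LAMA5 had a log2 difference of 0.28 (adjusted p = 0.145) with median-of-ratios scaling and 0.12 (adjusted p = 0.547) with quantile normalization. Its adjusted p was 0.0521, 0.0564 and 0.051 without control 1, PRMT1 library 1 and PRMT1 library 3. LAMB3 had 0.70 (adjusted p = 0.0709) with quantile normalization, and its adjusted p was 0.0524 without control 1 and 0.0575 without PRMT1 library 2.

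LAMA3, an alpha chain that pairs with LAMB3, had 0.800 TPM on average in the controls and 1.48 TPM with PRMT1. Its groups did not overlap, but it did not pass (log2 difference 0.47, adjusted p = 0.066). LAMC3 (-0.26, adjusted p = 0.129), LAMA4 (-0.21, adjusted p = 0.276) and LAMA1 (-0.09, adjusted p = 0.79) did not pass either. Without control 3 LAMA1 stood at -0.40 (adjusted p = 0.0421). LAMA2 reached 0.19 TPM and LAMB4 was listed at 0 in all libraries.

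Among the linkers of basement membranes, 1 of 4 fell (25%) and 0 rose, against 8.64% and 40.3% of all tested genes. NID2 (chr14:52004803-52069228), a nidogen, had 33.1, 33.1 and 21.9 TPM in the controls, against 19.2, 20.5 and 20.3 TPM with PRMT1. Control 3 lay near the PRMT1 libraries and far from the other controls, and the log2 difference was -0.51 (SE 0.16, adjusted p = 0.0306). Leaving out control 1, control 2 or PRMT1 libraries 1 to 3 gave an adjusted p of 0.101, 0.0927, 0.0853, 0.0674 and 0.0635. In GENCODE 29, 29.96% of NID2 exonic bases overlap RTRAF on the other strand, a gene with a mean of 62.3 TPM in the controls, against 54.8 TPM with PRMT1.

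NID1 (chr1:235975830-236065162), the other nidogen, had 216, 229 and 141 TPM in the controls, against 141, 158 and 148 TPM with PRMT1. Control 3 fell inside the PRMT1 range, and the log2 difference of -0.36 did not pass (adjusted p = 0.119). Without control 3 it was -0.57 (adjusted p = 0.0016). AGRN, agrin, differed by -0.27 (adjusted p = 0.174, and 0.0351 without control 3) and HSPG2, perlecan, by -0.09 (adjusted p = 0.773).

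Of the matrix glycoproteins, 2 of 5 fell (40%) and 0 rose, against 8.64% and 40.3% of all tested genes. SPARC (chr5:151661096-151687165), a collagen-binding glycoprotein, had 22.5, 20.3 and 20.7 TPM in the controls, against 14.03, 13.3 and 13.0 TPM with PRMT1. The groups lay far apart relative to their spread (log2 difference -0.62, SE 0.09, adjusted p = 0.00129). FBLN1 (chr22:45502238-45601135), fibulin 1, had 99.3, 96.4 and 87.2 TPM in the controls, against 72.1, 69.4 and 76.4 TPM with PRMT1. It fell by 0.37 on the log2 scale (SE 0.08, adjusted p = 0.00667).

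Fibronectin and the fibrillins, the microfibril proteins, did not pass. FN1 (fibronectin) had a log2 difference of -0.37 (adjusted p = 0.105), and -0.56 (adjusted p = 0.00499) without control 3. FBN2 had 13.7, 15.04 and 8.13 TPM in the controls, against 16.2, 20.8 and 18.3 TPM with PRMT1. Its groups did not overlap and its log2 difference was 0.58 (adjusted p = 0.0532, and 0.031 without control 2). After removal of PRMT1 with rescaling it was 0.69 (adjusted p = 0.0257), with median-of-ratios scaling 0.25 (adjusted p = 0.257) and with quantile normalization 0.19 (adjusted p = 0.367). FBN1 differed by 0.22 (adjusted p = 0.329).

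Among remodelling enzymes, MMP2 (chr16:55389700-55506691), a gelatinase that cuts collagen IV, had 25.4, 24.6 and 24.8 TPM in the controls, against 17.2, 17.1 and 16.9 TPM with PRMT1. Libraries of each group were close together, and the log2 difference was -0.52 (SE 0.08, adjusted p = 0.00154). MMP15, a membrane-bound metalloproteinase, differed by 0.11 (adjusted p = 0.304), and by 0.36 (adjusted p = 0.016) with the GC correction. MMP14, the membrane-bound activator of MMP2, reached at most 0.573 TPM and was not tested.

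TIMP1 (chrX:47582313-47586789), the most abundant gene of the whole group, had 352, 325 and 390 TPM in the controls, against 289, 264 and 296 TPM with PRMT1. The lowest control lay above the highest PRMT1 library, with a log2 difference of -0.33 (SE 0.09, adjusted p = 0.0153). The call was lost with quantile normalization (-0.18, adjusted p = 0.163) and after removal of PRMT1 with rescaling (-0.22, adjusted p = 0.0685). TIMP2, an MMP2 inhibitor, differed by 0.01 (95% confidence interval -0.18 to 0.19, adjusted p = 0.961) and TIMP3 by -0.08 (adjusted p = 0.573). With median-of-ratios scaling TIMP2 was at -0.34 (adjusted p = 0.012) and TIMP3 at -0.43 (adjusted p = 0.0024), and with quantile normalization TIMP2 was at -0.29 (adjusted p = 0.0221).

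Of the cross-linking enzymes, 2 of 5 fell (40%) and 0 rose, against 8.64% and 40.3% of all tested genes. LOXL2 had 27.5, 30.6 and 23.1 TPM in the controls, against 17.3, 17.7 and 17.2 TPM with PRMT1. The controls were spread more widely than the PRMT1 libraries, and the log2 difference was -0.60 (SE 0.11, adjusted p = 0.00388). LOX (chr5:122063195-122078360) had 72.7, 71.0 and 61.9 TPM in the controls, against 48.1, 58.9 and 48.98 TPM with PRMT1. PRMT1 library 2 came close to control 3 (log2 difference -0.39, SE 0.11, adjusted p = 0.0173), and the adjusted p was 0.0652, 0.0546, 0.0668 and 0.0558 without control 1, control 2, PRMT1 library 1 and PRMT1 library 3. LOXL1 (-0.07, adjusted p = 0.611), LOXL3 (0.10, adjusted p = 0.474, but -0.35 and 0.0218 with quantile normalization) and LOXL4 (-0.05, adjusted p = 0.84) did not pass.

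Summed over all 76 genes, matrix transcripts made 1722 ± 141 TPM in the controls, against 1318 ± 22.4 TPM with PRMT1 (SD, n = 3 each), without overlap and at a ratio of 0.765. Collagens outside the fibrillar and collagen IV classes went from 363 ± 26.5 to 227 ± 7.23 TPM, and collagen IV from 88.9 ± 12.6 to 61.3 ± 3.85 TPM. TIMPs went from 438 ± 26.5 to 363 ± 11.03 TPM, lysyl oxidases from 119 ± 10.1 to 92.8 ± 4.83 TPM and glycoproteins from 145 ± 14.1 to 118 ± 3.07 TPM. The sums of laminin chains (209 ± 37.0 and 178 ± 9.18 TPM) and of nidogens with proteoglycans (250 ± 58.9 and 190 ± 7.19 TPM) overlapped between the groups. These sums are described without a test.

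**Figure D4:**
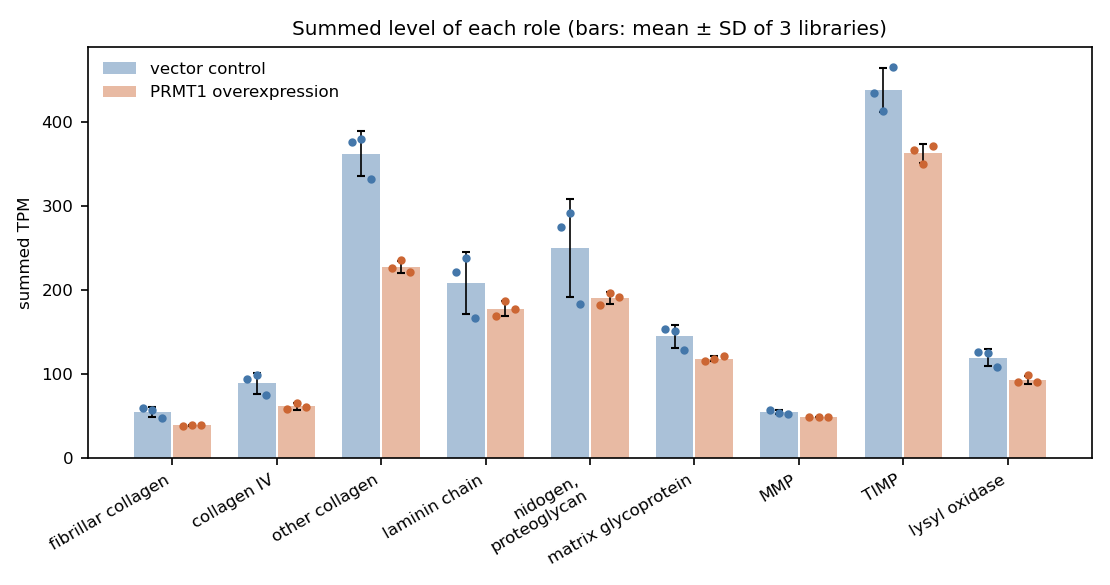
Summed TPM of the matrix genes of each role in each of the 6 libraries (points), with bars for the mean and error bars for the SD of the 3 libraries of each group. Sums for laminin chains and for nidogens with proteoglycans overlap between the groups, and the others do not.

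Ranked by mean TPM, TIMP1 was highest in both groups. COL6A1 had rank 2 in the controls and rank 3 with PRMT1, where NID1 (149 TPM) stood above it (120 TPM). LAMC1 had rank 5 in the controls and rank 4 with PRMT1, and COL6A2 went from rank 6 to rank 9. TIMP3 went from rank 10 to 6, FBN2 from 25 to 17 and LAMA5 from 38 to 29, while COL14A1 went from 29 to 38. The 10 most abundant genes made 72.7% of matrix TPM in the controls, against 71.0% with PRMT1.

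The matrix genes differ from other tested genes in properties the choice did not use. Their median GC content was 57.0% against 48.99% for all tested genes, and their median exonic length 7285 against 4203.5 bases. Over the 47 genes, which share the same libraries, the log2 difference and log2 mean TPM had a Pearson r of -0.52 and a Spearman rho of -0.49, and with GC content r was -0.20. Among genes with a mean of 10 to 100 TPM, 14 of 23 matrix genes were lower and 0 higher, against 9.45% and 43.5% of 6191 genes in that range. Under 10 TPM, 4 of 21 matrix genes were lower and 2 higher, against 3.21% and 42.6% of 7766 genes. Above 100 TPM, 2 of 3 were lower and 0 higher, and there 35.5% of 1384 genes were lower and 13.7% higher. By GC content, the matrix genes lower were 1 of 3 under 45% GC (2.64% of all genes there), 3 of 9 at 45 to 50% (6.92%), 1 of 8 at 50 to 55% (7.99%), 6 of 9 at 55 to 60% (14.3%), 6 of 10 at 60 to 65% (18.5%) and 3 of 8 above 65% (23.5%). Under the GC correction 18 matrix genes were lower and 3 higher (7.31% and 42.6% of all genes), and their median was -0.13 in place of -0.29. Removal of PRMT1 with rescaling left COL4A1, COL18A1 and NID2 short of the threshold (log2 differences -0.42, -0.18 and -0.40, adjusted p = 0.0663, 0.126 and 0.061), and the GC correction did so for COL4A1 (-0.44, adjusted p = 0.0696). Without the filter on low values COL4A1, COL18A1 and NID2 had an adjusted p of 0.087, 0.0569 and 0.0762, and without the variance trend COL4A1 and COL18A1 had 0.0501 and 0.0565. Neither setting changes the log2 difference itself.

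**Figure D5:**
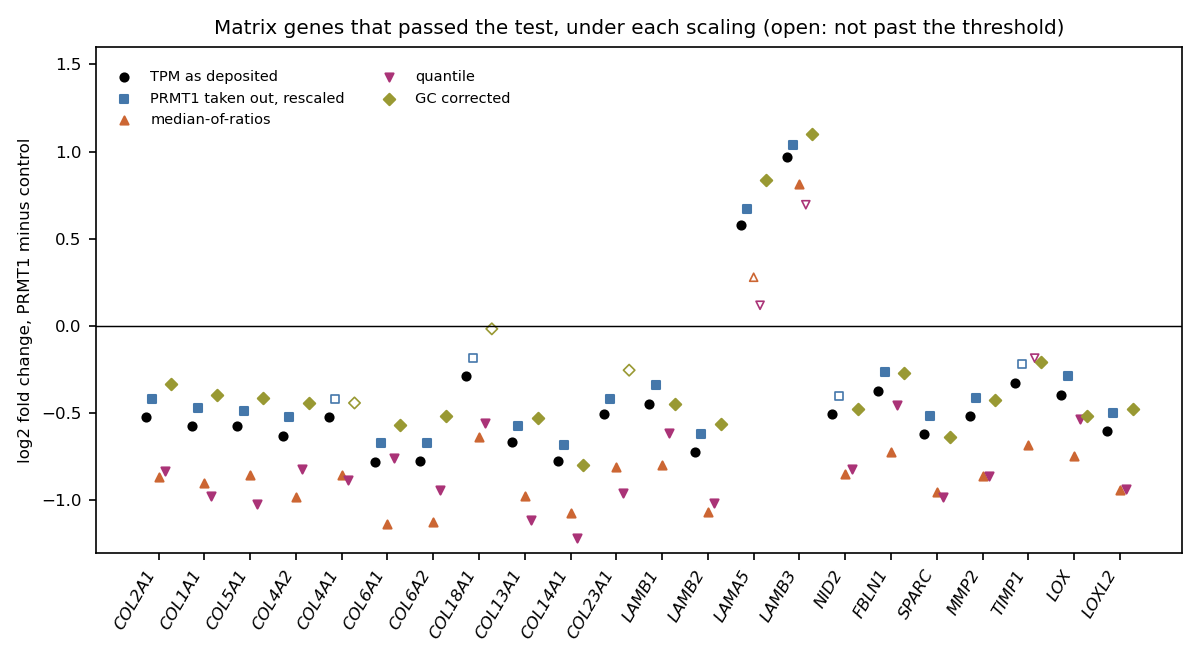
Log2 difference, PRMT1 minus control, of each of the 22 matrix genes that passed the test, as deposited and under 4 other scalings, with filled symbols for an adjusted p under 0.05 and open symbols otherwise. Signs stay the same throughout, and COL18A1 comes nearest to 0, at -0.02 with the GC correction.

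Other genes of the matrix pathway were taken from lists of 139 symbols, 138 of which were found and 87 tested. Of these 22 were lower (25.3%, against 8.64% of all tested genes) and 8 higher (9.20%, against 40.3%), with a median log2 difference of -0.11 beside the 0.30 of all genes. Proteins that fold, modify and export collagen had the most calls. Of 24 tested, 10 were lower (41.7%) and 2 higher (8.33%), against 8.64% and 40.3% of all tested genes. FKBP10, a procollagen chaperone, was at -0.52 (adjusted p = 0.000857), P4HB, the beta subunit of prolyl hydroxylase, at -0.28 (adjusted p = 0.00472), and CRTAP, of the prolyl 3-hydroxylation complex, at -0.35 (adjusted p = 0.00763). MIA3, which loads procollagen into transport carriers, rose by 0.51 (adjusted p = 0.00771) and KDELR3, a retrieval receptor, by 0.37 (adjusted p = 0.0205).

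Matrix receptors had 1 of 18 lower (5.56%, near the 8.64% of all tested genes) and 2 higher (11.1%, against 40.3%). The laminin receptor subunit ITGA6 rose by 0.86 (adjusted p = 0.00646) and dystroglycan, DAG1, by 0.65 (adjusted p = 0.00174), while BCAM, a receptor for LAMA5, was at -0.50 (adjusted p = 0.00867). ITGA6 went from 6.23, 6.19 and 4.18 TPM in the controls to 9.97, 13.2 and 9.26 TPM with PRMT1.

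Other matrix proteins had 7 of 27 lower (25.9%, against 8.64% of all tested genes) and 2 higher (7.41%, against 40.3%). The matricellular CCN1 had the largest fall of the lists, from 81.6, 83.9 and 92.5 TPM to 28.5, 28.6 and 25.8 TPM (log2 difference -1.60, adjusted p = 5.3e-05). CCN2, its relative, was at -0.96 (adjusted p = 0.000857) and the glypican GPC2 at -0.79 (adjusted p = 0.00128). THBS3 (0.53, adjusted p = 0.0148) and LTBP2 (0.50, adjusted p = 0.0369) rose. The list of other proteases, inhibitors and related genes had 4 of 18 lower (22.2%) and 2 higher (11.1%). Over all tested genes these shares were 8.64% and 40.3%. From the protease list, ADAMTS1 (-0.97, adjusted p = 0.000256), BSG (-0.45, adjusted p = 0.0014) and CTSB (-0.35, adjusted p = 0.00577) fell. ADAM17 (0.77, adjusted p = 0.00339) and HTRA1 (0.38, adjusted p = 0.0106) rose. Of the genes named as higher in these lists, MIA3, KDELR3, THBS3, LTBP2 and HTRA1 lost the call with median-of-ratios scaling, where their log2 differences were 0.18, 0.02, 0.25, 0.27 and 0.04. LTBP2 also lost it when any library other than control 2 was left out (adjusted p up to 0.0926), and KDELR3 and THBS3 lost it without control 1 (adjusted p = 0.0629 and 0.0567). P4HB and BCAM lost it with the GC correction (adjusted p = 0.0588 and 0.0721). With quantile normalization P4HB also lost the call, at a log2 difference of -0.066 (adjusted p = 0.426).

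Markers of the labelled cell type were present, with KRT8 at 79.8 and 78.8 TPM and KRT18 at 89.1 and 84.4 TPM on average in the control and PRMT1 libraries. Of 9 fibroblast markers, 7 stayed under 1 TPM in every library and THY1 was listed at 0. Their summed level was 7.12 to 10.4 TPM in the controls, against 14.3 to 19.6 TPM with PRMT1. Only 2 of the 9 were tested: ACTA2 rose from 3.58 to 11.2 TPM (adjusted p = 0.000506), and S100A4 did not pass. Of all tested genes 40.3% were higher. The summed level of the 6 endothelial markers, each under 1 TPM in every library, was 0.158 to 0.226 TPM in the controls, against 0.583 to 0.835 TPM with PRMT1. For the 6 leukocyte markers, 5 of them under 1 TPM throughout and CD3E at 0, it was 2.20 to 2.94 and 2.48 to 3.68 TPM. The part of these markers in the results was not tested.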

How the data were processed

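RNA of 6 HEK293T libraries, 3 per group, was measured after polyA selection and random priming per the labels. The deposited table gives TPM per Ensembl gene, and the tools listed, per the submitters' processing notes and without roles, are STAR 2.5.2b, Subread 1.5.2, featureCounts and Trimmomatic 0.36, with the build GRCh38. The annotation, the strand setting and the way TPM was calculated are each not given in the sources used here. TPM is not a count, so no count model was used.

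Genes that reached 1 TPM in 3 or more libraries entered limma 3.58.1 on log2(TPM + 1) (lmFit, eBayes with trend, no covariate) in R 4.3.3, adjusted by Benjamini-Hochberg over all tested genes at 0.05. Fold changes on this scale understate those of low genes. With 3 against 3 libraries, an exact permutation test of a single gene cannot go below p = 0.1, so none was used. The fit was tested on simulated data with independent normal noise for each gene and 200 changed genes. The simulation held no shifts shared by the genes of a library. It also held far fewer changed genes than were called here, so it covers neither feature of these data. Symbols, exons, lengths and overlaps came from GENCODE 29 and a gene name table. Reads were recovered as TPM times exonic length over the step of 1 read, and 95.5 to 95.7% of values under 50 reads were whole within 0.05. Counts of reads cover counting error only.

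Members and lists were chosen with earlier results of these data known. In each role, up to 4 genes past the threshold per direction with the largest change have values by library, and up to 3 per direction with the smallest p are named in each pathway list. Genes outside this rule that have values by library (LAMC1, NID1, FBN2, ITGA6 and CCN1) were chosen after their values were seen. The values of 1 tested gene are not reported here.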

Additional observations from a re-analysis of the deposited data

How the results depend on the processing

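Of the 22 matrix genes past the threshold, 14 passed under every alternative run for them other than the limit on fold change, and 0 changed direction. The counts moved with the scaling. Median-of-ratios scaling gave 32 matrix genes lower and 1 higher, 3692 and 3605 of all genes, and 51 and 3 of the pathway lists. Quantile normalization gave 0 matrix genes higher, 2929 of all genes lower and 3195 higher, and 52 and 3 of the lists. Array weights gave 31 matrix genes, 2838 of all genes and 43 list genes lower. Matrix genes higher were 4 without the filter, without the trend and after removal of PRMT1 with rescaling, where 880 of all genes were lower. At a fold change of at least 2 there were 0 matrix genes in either direction, 131 of all genes lower and 1528 higher, and 1 list gene lower and 0 higher. Here and below, leaving out libraries includes leaving out control 3 together with PRMT1 library 2. It gave 0 to 3 matrix genes higher, 15 to 30 lower, 935 to 2115 of all genes lower, and 5 to 8 list genes higher and 14 to 33 lower.

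The log2 ratio of summed TPM moved with median-of-ratios scaling to -0.85 (fibrillar), -0.89 (collagen IV), -1.03 (other collagens), -0.57 (laminins), -0.725 (nidogens and proteoglycans), -0.64 (glycoproteins), -0.51 (metalloproteinases), -0.63 (TIMPs), -0.72 (lysyl oxidases) and -0.74 (all). With quantile normalization it was -0.90 (fibrillar), -0.82 (collagen IV), -0.80 (other collagens), -0.41 (laminins), -0.49 (glycoproteins), -0.47 (metalloproteinases), -0.20 (TIMPs), -0.62 (lysyl oxidases) and -0.49 (all). After removal of PRMT1 with rescaling it was -0.56 (other collagens), -0.18 (glycoproteins), -0.047 (metalloproteinases), -0.16 (TIMPs), -0.25 (lysyl oxidases) and -0.27 (all).

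Sign changes were seen only for matrix genes that had not passed, and TIMP2 (median-of-ratios and quantile) and LOXL3 (quantile) then passed as lower. Median-of-ratios scaling and quantile normalization gave LOXL3 -0.21 and -0.35, COL4A5 -0.10 and -0.28, FBN1 -0.034 and -0.18, MMP15 -0.24 and -0.17, and TIMP2 -0.34 and -0.29. Quantile normalization also gave COL5A2 -0.089 and COL25A1 -0.093, and array weights COL5A2 -0.046 and COL4A5 -0.24. After removal of PRMT1, LAMC1 was at 0.094, COL27A1 at 0.059, LOXL4 at 0.025, LOXL1 at 0.030, TIMP3 at 0.028 and LAMA1 at 0.0078. The GC correction gave AGRN 0.0069, HSPG2 0.14, COL27A1 0.16, LOXL4 0.061 and LOXL1 0.21. Leaving out libraries gave ranges of -0.12 to 0.032 (COL27A1), -0.19 to 0.34 (COL4A5), -0.37 to 0.097 (HSPG2), -0.44 to 0.13 (LAMA1), -0.26 to 0.10 (LAMC1), -0.13 to 0.021 (LOXL1), -0.26 to 0.075 (LOXL4) and -0.020 to 0.037 (TIMP2). The cause of these shifts was not tested.

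Same-numbered libraries had correlations of -0.033, 0.059 and 0.020 in their deviations from the group means. No pairing by replicate number was seen, although so few libraries cannot exclude it. With the replicate number as a block 21 matrix genes were lower and 3 higher. With the replicate block and the GC correction together 18 were lower and 4 higher, with the sign changes of the GC correction at the same values. Genes near 1 TPM rest on few reads, and differences there were not detectable unless large.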
